A study of Saccharomyces cerevisiae with 24 samples.

Results

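The genes of trehalose synthesis and breakdown in budding yeast, Saccharomyces cerevisiae, were followed across 23 libraries of ribosome footprints. The members were 8 genes chosen by locus tag from the 5448 table lines that hold 1 gene each. They were TPS1 (YBR126C), TPS2 (YDR074W), TPS3 (YMR261C), TSL1 (YML100W), UGP1 (YKL035W), NTH1 (YDR001C), NTH2 (YBR001C) and ATH1 (YPR026W). All 8 had a line of their own in the table and passed the filter of a mean of 10 RPKM in every fit of the main analysis. ATH1, below 5 RPKM in every unstressed library, passed it through the stressed libraries alone, as did TSL1 and NTH2 at the x100 dose. An adjusted p printed for ATH1, or for TSL1 and NTH2 at x100, against unstressed cells therefore comes from a fit with no filter on level. Ranks, medians over the members, centred counts and counts with the primer set as a term keep the filter. RPKM means reads per kilobase of gene and per 10 to the power of 6 reads, and it allows levels of different genes to be set side by side.

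Trehalose is a disaccharide of glucose that yeast cells accumulate under stress and in starvation. Tps1 joins UDP-glucose and glucose 6-phosphate to trehalose 6-phosphate, Tps2 removes the phosphate, and Tps3 and Tsl1 are the regulatory subunits that hold the synthase complex together. Ugp1 makes the UDP-glucose, which also feeds glycogen and the cell wall, and the trehalases Nth1, Nth2 and Ath1 split trehalose back into glucose.

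The study asked how the dose of cycloheximide, which blocks elongating ribosomes, changes footprint maps of strain BY4741 under stress. Oxidative stress (0.2 mM hydrogen peroxide for 30 min, 8 libraries) and unstressed cells (8 libraries) grew in YPD, a rich medium, at 30°C and were collected without drug or with cycloheximide in the medium at x1/64, x1/16, x1/4, x1, x8 or x100, where x1 is 100 µg/ml. Heat shock (42°C for 20 min in YPD) had 1 library without drug and 1 at x1. The other libraries, all without drug in the medium, were 1 of cells moved for 20 min to synthetic SD medium with no amino acids, 1 of cells moved to the same medium with His, Met and Leu, 1 of cells in complete SD medium, and 2 of unstressed YPD cells lysed with edeine, which blocks subunit joining, or with aurintricarboxylic acid (aurin in the labels). Every lysate held cycloheximide. The lysate with aurintricarboxylic acid went onto the sucrose gradient undigested, and its polysomes and monosomes were pooled and treated with RNase I afterwards. This order of steps cannot be told apart from the inhibitor. The strain cannot make histidine, leucine or methionine. By the methods, the medium without amino acids held a nitrogen source and glucose only, so the other supplements of complete SD were left out too. Uracil is named there among the items supplied in some cases. At x100 the cells were filtered and resuspended before the drug was added, and heat shock and the SD media without amino acids also included a filtration and transfer that the methods do not describe for their controls, so these steps cannot be told apart from the treatments. The drug stock for x8 was in DMSO and that for low doses in water, so the solvent cannot be told apart from the dose at x8. Replicates existed at x100 alone, 2 per stress and stated to be independent repeats, and elsewhere the doses served as repeats.

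The depth recovered from the values was 1.92 to 27.89 M reads per library (M, 10 to the power of 6) with a median of 6.938 M. A member had from 7 to 33327 reads in a library. The stress labels were checked with 2 short lists. Of 4 heat-inducible chaperone genes tested, 4 were higher in heat shock than in oxidative stress, beside 4.77% of all genes, led by SSA4 and HSP26. All 5 peroxide-response genes were higher in oxidative stress than in unstressed cells, beside 63.7% of all genes, led by OYE3 and GPX2. All 5 were also lower in heat shock than in oxidative stress, beside 74.3%. Neither list was particular to its stress. Against unstressed cells, 4 of 4 heat genes were higher in oxidative stress. In heat shock 3 of 5 peroxide genes were higher and 1 lower, beside 26.9% and 42.7% of all genes. The 12 libraries of reverse transcription primer set 1 and the 11 of set 2 were taken as batches. Both heat shock libraries had set 2, and their unstressed partners at the same doses had set 1. Oxidative stress at x1 and x8 likewise had set 2, while unstressed cells at x1 and x8 had set 1. A footprint level combines the amount of an mRNA with its translation, and more mRNA per cell, more ribosomes per mRNA and a larger share of cells with that mRNA cannot be told apart here.

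Oxidative stress raised footprints on all 8 genes, from synthase to trehalase, by 3.80-fold to 60-fold on the scale of RPKM + 1. The catalytic subunits TPS1 and TPS2 stood at high levels in stressed cells, TSL1 showed the greatest change of the 8 and TPS3 the smallest. The plot of levels by dose shows each library.

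**Figure D1:**
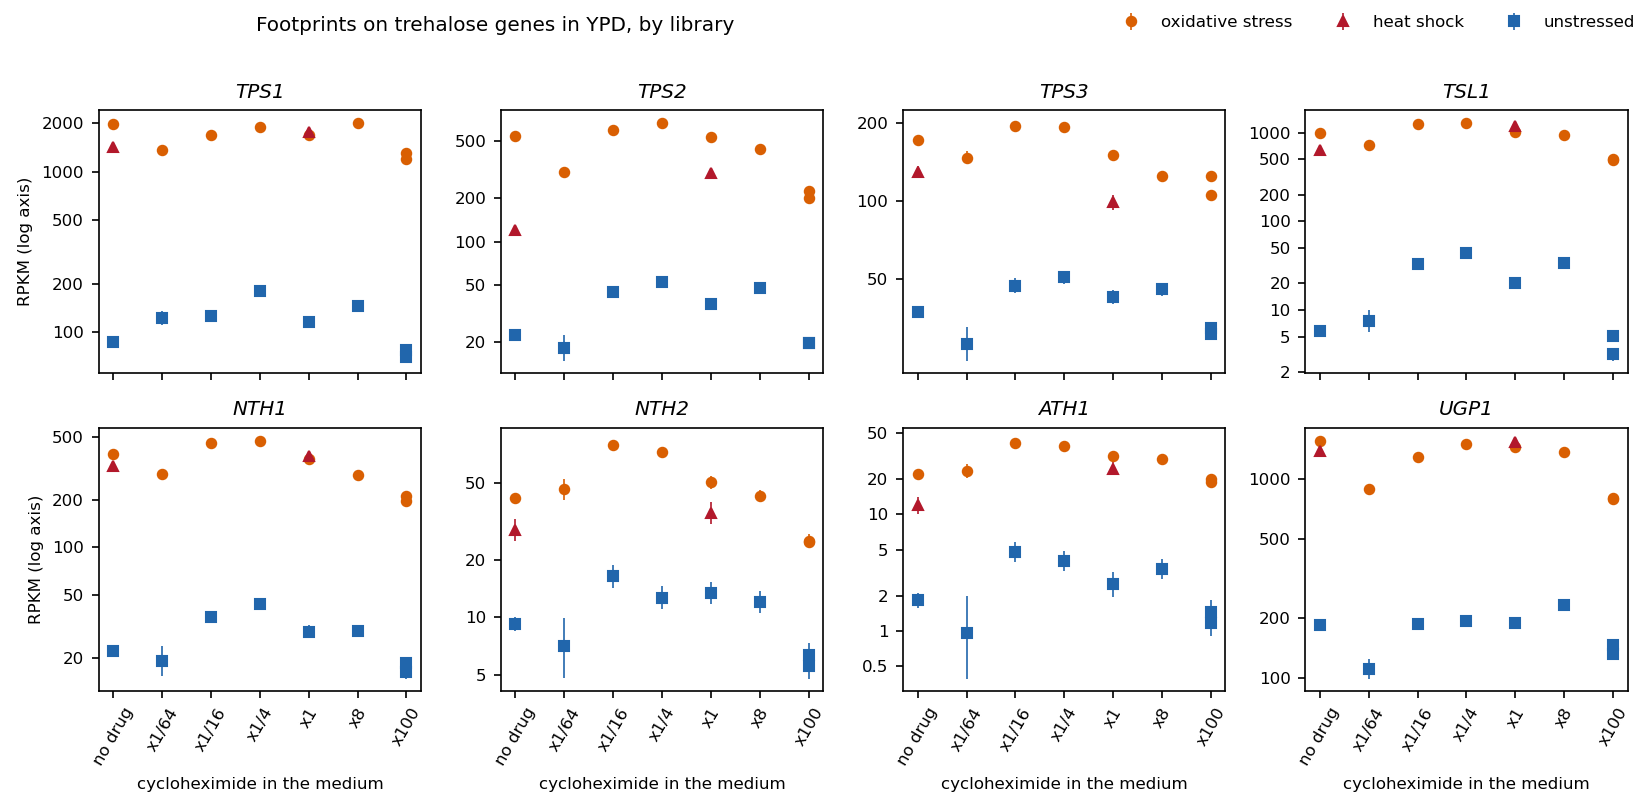
RPKM on a log axis for each trehalose gene in the 18 YPD libraries, by cycloheximide in the medium, for oxidative stress (circles), heat shock (triangles) and unstressed cells (squares), with 95% Poisson intervals of the reads as bars. At every dose the oxidative stress libraries lie above the unstressed ones for all 8 genes, and TSL1 spans 3.147 to 1294 RPKM.

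TPS1, the trehalose 6-phosphate synthase, had a lowest, median and highest level of 1200, 1693 and 2007 RPKM in the 8 oxidative stress libraries, against 69.36, 118.6 and 179.9 RPKM in the 8 unstressed libraries. The groups did not overlap, and the log2 change was 3.86 (SE 0.11, limma's adjusted p = 2.49e-11). TPS2, the phosphatase of the second step, had 201.5, 486.2 and 661.9 RPKM in oxidative stress, against 18.25, 29.92 and 52.33 RPKM in unstressed cells. These ranges were also apart, with a log2 change of 3.69 (SE 0.13, limma's adjusted p = 8.21e-11). In oxidative stress the lowest TPS2 levels were those of the x100 repeats, 223.7 and 201.5 RPKM.

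The regulatory subunits behaved unlike each other in size. TSL1 had a lowest, median and highest level of 492.2, 957.9 and 1294 RPKM in oxidative stress, against 3.147, 13.88 and 44.13 RPKM in unstressed cells. Its log2 change of 5.91 (SE 0.26, limma's adjusted p = 5.1e-10) placed it 22nd from the top of the 4269 genes tested. TPS3 had 105.6, 148.7 and 195.2 RPKM in oxidative stress, against 27.96, 39.73 and 50.62 RPKM in unstressed cells, a log2 change of 1.93 (SE 0.10, limma's adjusted p = 1.58e-09). The groups did not overlap for either gene.

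The unstressed level of TSL1 was the most uneven among the libraries. Unstressed cells had 5.776 RPKM without drug and 7.548 RPKM at x1/64. They had 32.59 RPKM at x1/16, 44.13 RPKM at x1/4, 20.22 RPKM at x1 and 33.75 RPKM at x8, and the x100 repeats had 5.096 and 3.147 RPKM. The 4 doses from x1/16 to x8 were thus all above the other libraries, in counts of 490 to 1003 reads, while the x1/64 value rested on 49 reads. The ratio of oxidative stress to unstressed cells accordingly ranged over the doses, being 170-fold without drug, 95.4-fold at x1/64, 38.8-fold at x1/16, 29.3-fold at x1/4, 50.4-fold at x1, 27.7-fold at x8 and 121-fold at x100 (ratio of RPKM, means of 2 repeats at x100). The unstressed libraries at x1/16 to x8 and the one without drug had primer set 1, and those at x1/64 and x100 had set 2. All 4 high values thus came from set 1, and the part of the primer set in them was not tested. In oxidative stress the x1 and x8 libraries had set 2, so the ratios at x1 and x8 also cross primer sets.

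UGP1, the UDP-glucose pyrophosphorylase, had a lowest, median and highest level of 795.9, 1331 and 1553 RPKM in oxidative stress, against 111.2, 185.6 and 233.5 RPKM in unstressed cells. The groups were apart and the log2 change was 2.79 (SE 0.09, limma's adjusted p = 3.49e-11). In unstressed cells it had the highest median of the 8 genes, and in oxidative stress it stood second to TPS1.

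The trehalases rose together with the synthase genes. NTH1, the main neutral trehalase of the cytosol, had a lowest, median and highest level of 195.5, 326.6 and 468 RPKM in oxidative stress, against 16.28, 25.88 and 44.04 RPKM in unstressed cells (log2 change 3.58, SE 0.09, limma's adjusted p = 1.13e-11). NTH2, its paralog, had 24.69, 44.79 and 79.38 RPKM in oxidative stress, against 5.527, 10.59 and 16.34 RPKM in unstressed cells (log2 change 2.09, SE 0.10, limma's adjusted p = 9.62e-10). ATH1, the acid trehalase that acts on trehalose outside the cytosol, had 18.93, 26.72 and 40.48 RPKM in oxidative stress, against 0.975, 2.192 and 4.764 RPKM in unstressed cells (no filter on level, log2 change 3.10, SE 0.09, limma's adjusted p = 2.53e-09). None of the 3 overlapped between the groups. The ATH1 level of unstressed cells at x1/64, 0.975 RPKM, came from 7 reads with a 95% Poisson interval of 0.393 to 2.02 RPKM.

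All 8 members were called higher in oxidative stress, where 63.7% of the 4269 genes tested were called higher and 21.9% lower. With no filter on level 8 of 8 were called as well, but the share of all genes called in that fit is not given here. Each member was higher at 7 of 7 doses. No overlap between the 8 oxidative stress and 8 unstressed libraries was also found for 38.6% of all genes tested. The members differed from that background in size, with a median log2 change of 3.34 beside 0.54 over all genes tested. TSL1, TPS1, TPS2, NTH1, ATH1 and UGP1 had the ranks 22, 89, 97, 106, 152 and 188 from the top, NTH2 had 326 and TPS3 391. After centring every library on its median gene, 8 of 8 members were again higher with a median of 2.81, beside 41.9% of genes higher and 40.5% lower. ATH1 passed the filter through the stressed libraries alone, so its rank and its part in these medians and filtered counts are a description only.

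**Figure D2:**
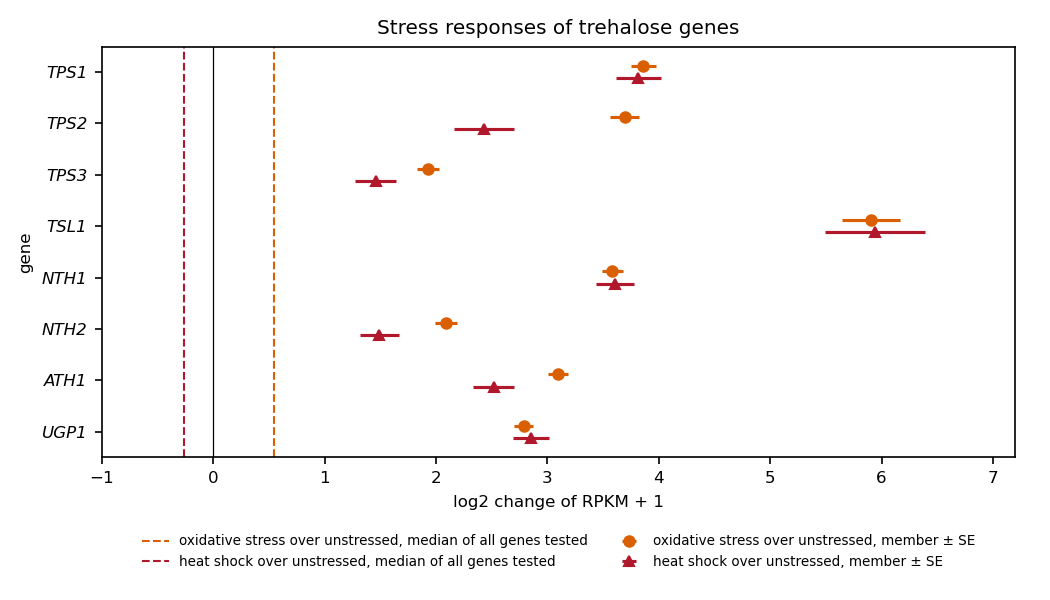
Log2 change of RPKM + 1 for each trehalose gene in oxidative stress (circles, n = 8 libraries) and heat shock (triangles, n = 2 libraries) against 8 unstressed libraries, with SE bars from limma and dashed lines at the median of all genes tested (0.54 and -0.27). All 8 genes lie to the right of both medians, and TPS2 shows the widest gap between the stresses. All points come from fits with the filter of 10 RPKM, which ATH1 passed through the stressed libraries alone.

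The x100 libraries gave the same direction from independent repeats. TSL1 had 492.2 and 502.5 RPKM in oxidative stress, against 5.096 and 3.147 RPKM in unstressed cells (no filter on level, log2 change 6.63, SE 0.23, limma's adjusted p = 0.00194). TPS1 averaged 1253 ± 74.9 RPKM in oxidative stress and 73.42 ± 5.75 RPKM in unstressed cells (SD, n = 2 each, log2 change 4.08, SE 0.12, limma's adjusted p = 1.54e-05). NTH1 averaged 203.4 ± 11.1 RPKM in oxidative stress and 17.41 ± 1.6 RPKM in unstressed cells (SD, n = 2 each, log2 change 3.47, SE 0.12, limma's adjusted p = 2.03e-05). The gap between stresses was many times the gap between repeats for each of the 3. With no filter on level 8 of 8 members were called higher, but the share of all genes called in that fit is not given here. In the fit with the filter all 8 were called higher, among 56% of 4022 genes tested. The log2 changes ran from 1.84 (TPS3) to 6.63 (TSL1), with a median of 3.25 beside 0.50 over all genes. Centred on the median gene, 8 of 8 were higher, beside 31.8% of genes higher and 34.2% lower. ATH1, TSL1 and NTH2 passed the filter at this dose through the stressed libraries alone. Their part in the median and in the filtered counts is therefore a description only. The 4 libraries at x100 are also part of the comparison over all doses.

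Across the 14 libraries with drug in the medium, the dose went with a called change of 1 of the 8 trehalose genes. It was NTH2, with a log2 change of -0.16 per 10-fold dose (SE 0.05, limma's adjusted p = 0.0326), where 19.8% of 4288 genes were called lower and 4.31% higher. In oxidative stress NTH2 had 46.56 RPKM at x1/64, 79.38 RPKM at x1/16, 72.65 RPKM at x1/4, 50.81 RPKM at x1 and 43.02 RPKM at x8, and the x100 repeats had 24.69 and 25.13 RPKM. NTH2 was thus highest at x1/16 and lowest at x100. The oxidative stress libraries at x1/16 and x1/4 had primer set 1, and the others with drug had set 2. The higher values therefore coincide with the primer set, which the fit held as a term. Without that term the NTH2 slope was -0.27 and still called. Within set 1 alone it was -0.17 and within set 2 alone -0.15, both without a call. The part of the primer set in the single values was not tested. In the main fit the other slopes lay between -0.14 (TSL1) and 0.03 (UGP1) with adjusted p of 0.115 to 0.757. The NTH2 call was lost without the x100 dose, where its slope was -0.04, and UGP1 was then called higher at 0.23 per 10-fold dose (adjusted p = 0.0225). It was also lost after centring on the median gene, with a slope of -0.10 and 10.5% of genes lower beside 12.7% higher, and when any 1 of 6 libraries was left out.

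Heat shock raised the same 8 genes. Both heat shock libraries were above all 8 unstressed libraries for every member, as they were for 20.5% of the 4234 genes tested. TSL1 had 642.4 RPKM without drug and 1174 RPKM at x1 in heat shock, against 5.776 and 20.22 RPKM in unstressed cells at the same doses. TPS1 had 1432 and 1769 RPKM in heat shock, against 86.52 and 115.1 RPKM in unstressed cells. UGP1 had 1379 and 1537 RPKM in heat shock, against 183.8 and 189.4 RPKM in unstressed cells. The log2 changes were 5.94 for TSL1 (SE 0.45, limma's adjusted p = 6.19e-08), 3.82 for TPS1 (SE 0.21, limma's adjusted p = 3.67e-09) and 2.85 for UGP1 (SE 0.16, limma's adjusted p = 4.87e-09).

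Among the trehalases, NTH1 had 327.2 RPKM without drug and 378.7 RPKM at x1 in heat shock, against 22.34 and 29.43 RPKM in unstressed cells, a log2 change of 3.61 (SE 0.17, limma's adjusted p = 1.59e-09). ATH1 had 11.93 and 24.66 RPKM in heat shock, against 1.846 and 2.537 RPKM in unstressed cells, a log2 change of 2.52 (no filter on level, SE 0.18, limma's adjusted p = 8.8e-07). NTH2 had 28.6 and 34.93 RPKM in heat shock, against 9.176 and 13.41 RPKM in unstressed cells, a log2 change of 1.49 (SE 0.18, limma's adjusted p = 4.85e-06). The order NTH1, ATH1, NTH2 by size of change was that of oxidative stress. For the other members of the synthase complex, TPS2 had 120.4 and 298.4 RPKM in heat shock, against 22.63 and 37.22 RPKM in unstressed cells (log2 change 2.43, SE 0.27, limma's adjusted p = 2.04e-06). TPS3 had 129.4 and 99.02 RPKM in heat shock, against 37.19 and 42.26 RPKM in unstressed cells (log2 change 1.46, SE 0.18, limma's adjusted p = 7.51e-06).

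The background of heat shock ran the other way. All 8 members were called higher, where 26.9% of 4234 genes were called higher and 42.7% lower. With no filter on level 8 of 8 were called higher too, again without a share of all genes for that fit. In the fit with the filter, the median log2 change was 2.68 for the members beside -0.27 for all genes tested. Centred on the median gene, 8 of 8 members were higher, beside 37.5% of genes higher and 35.8% lower. ATH1 passed the filter through the stressed libraries alone, so its part in this median and in the filtered counts is a description only. With the primer set as a term, 8 of 8 members were called again, with log2 changes of 1.71 (TPS3) to 6.72 (TSL1). The share of all genes called in that fit is not given here. Both heat shock libraries had the same primer set, and their unstressed partners at the same doses had the other. Heat shock was therefore not compared directly with unstressed cells of the same dose and primer set. Heat shock and oxidative stress were set against the same unstressed libraries.

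The direct comparison of the 2 stresses depended on the scale for most members. On the deposited scale TPS2, TPS3, NTH2 and ATH1 were called lower in heat shock than in oxidative stress, as were 74.3% of all genes, whose median was -0.88, but after centring every library on its median gene no member was called lower, and TPS1, TPS3, NTH1 and UGP1 were called higher, among 22.1% of genes higher and 24.4% lower. TPS2 was the member with the greatest difference, with 120.4 RPKM in heat shock and 545.2 RPKM in oxidative stress without drug, and 298.4 RPKM in heat shock and 530.2 RPKM in oxidative stress at x1. Its log2 difference was -1.26 (SE 0.27, limma's adjusted p = 0.000759) on the deposited scale and -0.44 (adjusted p = 0.194) after centring, and with the primer set as a term it was the 1 member called, at -0.99 (adjusted p = 0.0183). The differences of TPS3, NTH2 and ATH1 were -0.47, -0.59 and -0.58 on the deposited scale and 0.35, 0.23 and 0.24 after centring.

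TPS1, TSL1, NTH1 and UGP1 had log2 differences between heat shock and oxidative stress of -0.05, 0.04, 0.03 and 0.06 on the deposited scale, with adjusted p of 0.727 to 0.945, which does not show that the stresses acted alike on them. At x1, where both libraries had primer set 2, TPS1 had 1769 RPKM in heat shock and 1704 RPKM in oxidative stress, and NTH1 had 378.7 RPKM in heat shock and 361 RPKM in oxidative stress. The median of all genes between these 2 libraries was -1.

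In heat-shocked cells, x1 drug in the medium went with more footprints on TPS2, at 298.4 RPKM with drug and 120.4 RPKM without, a ratio of 2.48 (95% interval 2.31 to 2.67, counting error only). It was the 1 member past 2-fold on the scale of RPKM + 1, where 2.05% of 4301 genes were higher by that much, 16.6% were lower and the median of all genes was -0.43. After centring on the median gene 3 members were past it, among 4.44% of genes, TPS2 at 1.70, ATH1 at 1.38 and TSL1 at 1.27. TSL1 had a ratio of 1.83 on the RPKM scale. ATH1 had a ratio of 2.07 on the RPKM scale, at 24.66 RPKM with drug and 11.93 RPKM without. TPS3 went the other way, at 99.02 RPKM with drug and 129.4 RPKM without, but after centring on the median gene its log2 difference was 0.01. With 1 library each, no test was possible.

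Moving cells to SD medium without amino acids was followed by higher footprints on the whole pathway. UGP1 had 2805 RPKM without amino acids, its highest level of the 23 libraries, against 402.8 RPKM in complete SD. TPS1 had 1412 RPKM without amino acids and 240.1 RPKM in complete SD, a ratio of 5.88 (95% interval 5.61 to 6.17). TPS2 had 613.2 RPKM without amino acids and 68.29 RPKM in complete SD, a ratio of 8.98 (8.46 to 9.53). These intervals cover counting error only, since each medium had 1 library.

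TSL1 again had the largest ratio of the 8, 12.8 (95% interval 12.2 to 13.5), with 857 RPKM without amino acids and 66.98 RPKM in complete SD. TPS3 had 257.9 RPKM without amino acids and 53.36 RPKM in complete SD, the smallest ratio at 4.83 (4.5 to 5.19). Of the trehalases, NTH1 had 361.8 RPKM without amino acids and 45 RPKM in complete SD. NTH2 had 115.2 RPKM without amino acids and 16.48 RPKM in complete SD, and ATH1 had 34.76 RPKM without amino acids and 5.039 RPKM in complete SD. The ratios of NTH1, NTH2 and ATH1 were 8.04, 6.99 and 6.9, with overlapping intervals, and for NTH2 as for TPS3 the library without amino acids was the highest of the 23.

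All 8 members were past 2-fold without amino acids, among 46.4% of 4301 genes, with a median log2 difference of 2.76 beside 0.89 over all genes. After centring on the median gene, 8 of 8 were still past 2-fold, with a median of 1.84, where 21.7% of genes were.

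Supplying His, Met and Leu left the trehalose genes high. TPS1 had 1708 RPKM with these 3 amino acids, UGP1 had 2691 RPKM and TSL1 had 598.9 RPKM, which were 7.11, 6.68 and 8.94 times their complete SD levels. TPS3 had 131 RPKM with His, Met and Leu and 53.36 RPKM in complete SD, a ratio of 2.45 (95% interval 2.30 to 2.62). NTH1, NTH2, ATH1 and TPS2 had ratios of 5.75, 5.81, 5.29 and 7.01. All 8 members were past 2-fold, among 28.6% of genes, with a median log2 difference of 2.62 beside 0.55 over all genes, and 7 were past it after centring, among 13.7% of genes, TPS3 being at 0.80. This library had primer set 2 and the complete SD library set 1, and both SD comparisons share the complete SD library.

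**Figure D3:**
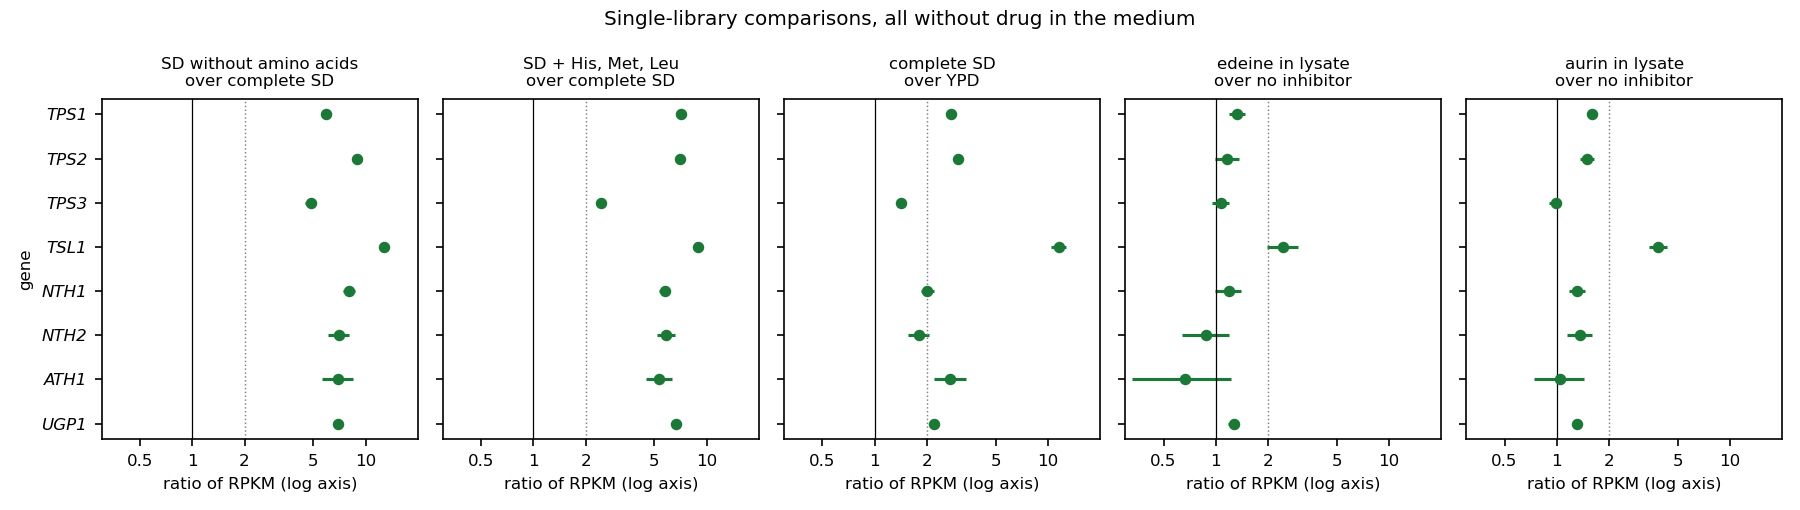
Ratio of RPKM on a log axis for each trehalose gene in 5 comparisons of 1 library with 1 library, with 95% intervals of counting error as bars, a solid line at a ratio of 1 and a dotted line at 2. Ratios without amino acids lie between 4.83 and 12.8, those of complete SD over YPD between 1.43 and 11.6, and TSL1 is the rightmost point in all 5 panels.

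Complete SD medium itself held more footprints on these genes than YPD. TSL1 stood out with 66.98 RPKM in complete SD and 5.776 RPKM in YPD without drug, a ratio of 11.6 (95% interval 10.5 to 12.8). TPS2 had 68.29 RPKM in complete SD and 22.63 RPKM in YPD, a ratio of 3.02, and TPS1 had 240.1 RPKM in complete SD and 86.52 RPKM in YPD, a ratio of 2.78. TPS3 had the smallest ratio, 1.43 (1.35 to 1.52). TPS1, TPS2, TSL1, ATH1 and UGP1 were past 2-fold on the scale of RPKM + 1, that is 5 of 8 members among 6.32% of genes. After centring it was 3 of 8, TPS1, TPS2 and TSL1, among 4.46% of genes. Both libraries had primer set 1, and neither had a repeat.

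The inhibitors in the lysate were set against the same YPD library without drug. TSL1 had 14.12 RPKM with edeine and 5.776 RPKM without, a ratio of 2.45 (95% interval 1.97 to 2.99), and was the 1 member past 2-fold, where 1.23% of genes were higher by that much. TSL1 was also the 1 member past 2-fold with aurintricarboxylic acid, at 22.22 RPKM, a ratio of 3.85 (3.39 to 4.36), where 2.26% of genes were. The other 7 members had ratios of 0.661 to 1.33 with edeine and 0.984 to 1.59 with aurintricarboxylic acid. TSL1 in both inhibitor libraries, at 14.12 and 22.22 RPKM, lay within the range of the 8 unstressed libraries, 3.147 to 44.13 RPKM. ATH1 with edeine had 11 reads, and the interval of its ratio, 0.327 to 1.22, includes 1.

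The balance within the complex differed between conditions, as the plot of ratios by library shows. TSL1 over TPS3, the ratio of the levels of the regulatory subunits, had a lowest, median and highest value of 3.95, 6.09 and 7.48 in oxidative stress, against 0.103, 0.374 and 0.872 in unstressed cells. It was 4.96 without drug and 11.9 at x1 in heat shock, 3.32 without amino acids, 4.57 with His, Met and Leu, and 1.26 in complete SD. TPS3 thus had the higher level in all 8 unstressed libraries and TSL1 in every oxidative stress, heat shock and SD library.

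TPS2 over TPS1, the phosphatase over the synthase, had 0.168, 0.249 and 0.354 as its lowest, median and highest value in oxidative stress, against 0.150, 0.290 and 0.354 in unstressed cells, so the ranges overlapped almost entirely. In heat shock the ratio was 0.0841 without drug and 0.169 at x1. NTH2 over NTH1 had 0.107, 0.145 and 0.174 in oxidative stress, against 0.288, 0.397 and 0.456 in unstressed cells, with no overlap. It was 0.0874 and 0.0922 in heat shock, but 0.318 without amino acids, 0.370 with His, Met and Leu and 0.366 in complete SD. The paralogs therefore changed by different amounts in peroxide and heat and by nearly the same amount in SD without amino acids.

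**Figure D4:**
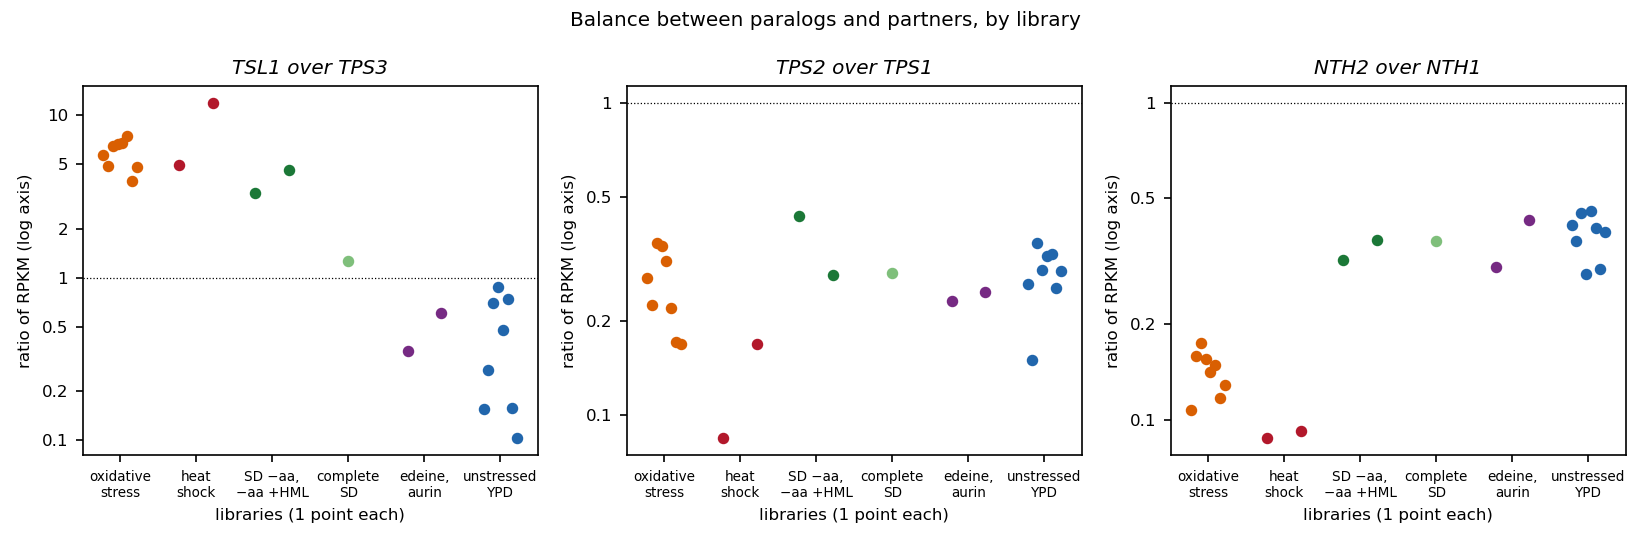
Ratio of RPKM between 2 trehalose genes on a log axis, 1 point per library, for TSL1 over TPS3, TPS2 over TPS1 and NTH2 over NTH1, in oxidative stress, heat shock, SD without amino acids or with His, Met and Leu added (−aa, −aa +HML), complete SD, lysates with edeine or aurintricarboxylic acid, and unstressed YPD cells. TSL1 over TPS3 is at most 0.872 in unstressed cells and at least 3.95 in oxidative stress.

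Over all 23 libraries the level of TSL1 spanned a factor of 411.3 between its highest and lowest library. The span was 41.51 for ATH1, 36.27 for TPS2, 28.94 for TPS1, 28.75 for NTH1, 25.24 for UGP1, 20.84 for NTH2 and 9.226 for TPS3. In oxidative stress the median levels ran from TPS1, UGP1, TSL1, TPS2, NTH1 and TPS3 down to NTH2 and ATH1. The neighbours TPS1 and UGP1, UGP1 and TSL1, TSL1 and TPS2, TPS2 and NTH1, and NTH2 and ATH1 had overlapping ranges, while NTH1 and TPS3 just separated, at a lowest of 195.5 RPKM and a highest of 195.2 RPKM. In unstressed cells the order was UGP1, TPS1, TPS3, TPS2, NTH1, TSL1, NTH2 and ATH1, so that TSL1 came after TPS3, TPS2 and NTH1. There the ranges of TPS1 and TPS3 and those of NTH2 and ATH1 did not overlap, and the other neighbours did.

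The genes whose log2(RPKM + 1) followed the members most closely over the 23 libraries were found by Pearson's r among 4301 genes, as a description, since the libraries share stresses, media and primer sets. TPS1 was followed by GOR1 (0.996), TFS1 (0.994) and PGM2 (0.993). TSL1 was followed by GLK1 (0.992), TFS1 (0.991) and NNR2 (0.989), and NTH1 by TFS1 (0.993), NNR2 (0.993) and SOL4 (0.991). TFS1 was therefore near TPS1, TSL1 and NTH1, which were synthase, subunit and trehalase genes. TPS2 was followed by SDS24 (0.989), NSG2 (0.989) and the member ATH1 (0.988), whose own nearest genes were GID11 (0.990), RNY1 (0.989) and TPS2. TPS3 had MRX9 (0.988), SDS24 (0.985) and GGA1 (0.985). NTH2 had ULA1 (0.989), RSF2 (0.988) and NDI1 (0.983), and UGP1 had TMA17 (0.990), LSP1 (0.982) and GPD1 (0.979). Between the members r was 0.903 to 0.989 over the 28 pairs, with a median of 0.960. Such values were common, since the place of a member among the genes most like another ran from 3 to 472 of the 4301, with a median of 84.5.

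The genes that supply or share the sugar phosphates were counted beside the shares of all genes. Of 5 genes that make glucose 6-phosphate or glucose 1-phosphate, 3 were higher and 2 lower in oxidative stress than in unstressed cells, beside 63.7% and 21.9% of all genes. PGM2, the major phosphoglucomutase, had a log2 change of 6.71 and HXK1, a hexokinase, one of 5.17. In heat shock 3 were higher and 2 lower as well, beside 26.9% and 42.7% of all genes, with PGM2 at 6.53 and HXK1 at 4.66. Of 6 glycogen genes tested, 6 were higher in oxidative stress and 6 in heat shock, beside the same 63.7% and 26.9% of all genes, with GPH1, the glycogen phosphorylase, at 5.24 and 5.78, and GDB1, the debranching enzyme, at 4.83 and 4.31. Without amino acids 6 of 6 glycogen genes were past 2-fold over complete SD, beside 46.4% of all genes, led by GSY1, a glycogen synthase, at 4.58, and in complete SD 5 of 6 were past 2-fold over YPD, beside 6.32%. Genes of opposed roles, synthesis and breakdown, were thus higher together for glycogen as for trehalose.

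Of 8 regulators of trehalase and of protein kinase A, the kinase that activates neutral trehalase, 7 were higher and 0 lower in oxidative stress, beside 63.7% and 21.9% of all genes. DCS2, a paralog of the decapping scavenger gene DCS1, had the largest log2 change of them, 5.85. In heat shock 7 were higher and 1 lower, beside 26.9% and 42.7%, with DCS2 at 6.09 and DCS1 at 2.62. With dose, 2 of 6 glycogen genes fell, beside 19.8% of all genes, GSY1 at -0.28 and GSY2 at -0.26 per 10-fold dose, and 1 of 8 regulators rose, beside 4.31%, BMH2, whose protein binds phosphorylated trehalase, at 0.10. With edeine 0 of 5 supply genes, 1 of 6 glycogen genes (GLC3, the branching enzyme, at 1.04) and 0 of 8 regulators were past 2-fold, beside 1.23% of all genes. With aurintricarboxylic acid 3 of 5 supply genes, 3 of 6 glycogen genes and 1 of 8 regulators were past it, beside 2.26%, with HXK1 at 1.39, GLC3 at 1.37 and DCS2 at 1.25.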

How the data were processed

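RPKM values were computed by the authors, 1 column per library, from footprints they aligned with Bowtie 0.12.7 (submitters' processing notes) to the S288C genome. The release, the reads in the total and multiply aligned reads are not given in the sources used here. The deposited RPKM table had 5564 lines, 5448 with 1 locus tag, of which 5446 matched the reference names, and 116 joining several, which were left out. The sample of small subunits, 1 of 24, was not analysed here. The average occupancy profiles hold no gene and were not used.

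Low values were whole multiples of 1 read (95.8 to 98.8% within 0.1) once 99 or 100 nt were taken off each gene, which gave depths and the 95% counting intervals. Intervals cover counting error only. Genes averaging 10 RPKM or more over the libraries of a fit were fitted as log2(RPKM + 1) in limma 3.58.1 (R 4.3.3), with two-sided tests and Benjamini-Hochberg adjustment over all genes at 0.05. Such fold changes understate low genes. Oxidative stress was fitted with dose as a block (16 libraries) and at x100 alone (4), the dose trend with stress and primer set as terms (14), and heat shock in a fit of 18 YPD libraries with stress and dose. P-values rest on the spread between these libraries, which outside x100 are single libraries of different doses. For heat shock the spread was taken from all 18 YPD libraries, with no repeat of a heat shock condition. Single libraries were compared by 2-fold differences of RPKM + 1, with no test. Alternatives were pseudocounts of 0.1 and 10, no filter or 30 RPKM, centring, an intensity trend, the primer set and libraries left out. For the limma fits, shares of all genes called are given for the main and centred fits alone. The fits were tested on simulated data. The 8 members and all lists were chosen with earlier results of these data known. The 8 members are named throughout, with at most 2 genes per other list (the largest changes past the threshold) and the 3 genes most like each member. The values of 1 other gene of these lists are not reported here.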

Additional observations from a re-analysis of the deposited data

Results flagged for a closer look

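On the deposited scale, the test of the difference itself called 4 trehalose genes lower in heat shock than in oxidative stress, a smaller share than among all genes. The log2 difference, heat shock minus oxidative stress, was -1.26 for TPS2, -0.47 for TPS3, -0.594 for NTH2 and -0.579 for ATH1, with limma's adjusted p of 0.000759, 0.0298, 0.00799 and 0.0121. That is 4 of 8 members, where 74.3% of all genes were called lower. Without drug and at x1, the heat shock library was below the oxidative stress library of the same dose for each of the 4. The median of all genes was lower as well, at -0.78 without drug and -1 at x1. TPS3 (-0.413 and -0.596) and NTH2 (-0.534 and -0.528) fell less than that median at both doses. TPS1, TSL1, NTH1 and UGP1 were also below without drug, but above at x1. With the primer set as a term 1 member, TPS2, was called. After centring every library on its median gene, no member was called lower, and TPS2 was at -0.44 with limma's adjusted p of 0.194. TPS3 was then called higher, at 0.352 (limma's adjusted p = 0.0299), and NTH2 and ATH1 changed direction without a call. No condition had 4 or more libraries, so no library was tested for standing apart within its group.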

How the results depend on the processing

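Oxidative stress and heat shock against unstressed cells kept all tested members higher under every alternative run, 8 of 8 or, with the 30 RPKM filter, 6 of 6. At x100, 7 or 8 members were called with 1 replicate left out, ATH1 falling under the filter where the count was 7, and 8 with the replicate number as a replicate block. The numbers share no stated batch, and the differences between repeats correlated across genes at r = 0.439.

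For the dose trend, 1 member was called, and 0 with a pseudocount of 10, with the 30 RPKM filter, after centring, or within primer set 1 or 2 alone (added after seeing the data). It was 2 without the primer set term (NTH1 added, at -0.21) and 1 in the opposite direction without x100. With 1 library left out it was 0 to 1, being 0 without unstressed x1/16, x8 or x100 replicate 1, or oxidative x1/64 or either x100 replicate. Slopes changed sign after centring for TPS3 (0.0187) and ATH1 (0.0244), without the primer set term for UGP1 (-0.0526), without x100 for TPS1 (0.108), TPS2 (0.183), TSL1 (0.208) and ATH1 (0.0871), and within primer set 1 for TPS1 (0.0243) and TPS2 (0.00237). With 1 library left out, UGP1 ran from -0.0227 to 0.0613.

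For heat shock against oxidative stress, 4 members were called lower, and 2 with the 30 RPKM filter, 1 with the primer set as a term, 4 in the opposite direction after centring, and 2 to 4 with 1 library left out (2 without heat shock at x1). After centring TPS1 was 0.778, TPS3 0.352, NTH2 0.229 and ATH1 0.244, and with the primer set as a term TPS1 was 0.0087. With 1 library left out, differences ran from -0.152 to 0.17 for TPS1, -0.193 to 0.419 for TSL1, -0.0566 to 0.179 for NTH1 and -0.0294 to 0.166 for UGP1. Of single-library counts, complete SD over YPD fell to 3 members after centring, among 4.46% of genes, and edeine to 0 with a pseudocount of 10. Heat shock with drug over without became 2 with a pseudocount of 0.1 and 3 after centring, among 4.44% of genes. The causes were not tested. Depth limits ATH1 and NTH2 in the shallow libraries, and heat shock rests on 2 libraries of 1 primer set.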
